A study of Mus musculus with 4 samples.

Results

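Cluster 14 of the authors' clustering of tumour CD45+ cells was a small group of lymphocytes whose leading genes were the granzymes Gzmg, Gzmd, Gzme and Gzmf and the related protease gene Ctsg. Its members were taken from the deposited cell table as the cells whose graph cluster number is 14, matched to the count matrices by library and barcode. There were 165 such cells among 14491 listed cells with a matrix column, in a clustering of 19 clusters. In the authors' separate table of lymphoid cells, which has 12 clusters, 152 of the 165 cells (92.1%) were in lymphoid cluster 10, 8 were in cluster 0 and 5 in cluster 9.

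The cells came from transplanted tumours in wild-type 129S6 mice. Each injection was 200 µg, on days 3, 6 and 9 after transplant, of a rat IgG2a isotype control antibody, of the anti-PD-1 antibody RMP1-14, of the anti-CTLA-4 antibody 9D9, or of both checkpoint antibodies (the combination). T cells carry PD-1 and CTLA-4 as inhibitory receptors. Tumours were digested with collagenase, live CD45+ leukocytes were sorted, and 1 droplet library with 3′ unique molecular identifiers (UMIs) was made per antibody group. How many mice stand behind each library is not stated in the labels, and all 4 groups share the tumour, the strain and the sort.

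Natural killer (NK) cells are innate lymphocytes that kill stressed or transformed cells without a rearranged antigen receptor, and NKp46, the product of Ncr1, is a receptor used to recognise them in mice. They kill by releasing granules in which perforin opens a path for granzymes, a family of serine proteases. Granzymes A and B are the familiar members. In the mouse, Gzmb lies in a cluster of protease genes that also holds the less studied granzymes C to G and, beside them, genes used by mast cells, neutrophils and basophils, such as Ctsg (cathepsin G) and Mcpt8 (a basophil protease).

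Cluster 14 held 26 cells in the control library, 35 in the anti-PD-1 library, 70 in the anti-CTLA-4 library and 34 in the combination library. Their UMIs summed to 152862, 254231, 485641 and 236482. A cluster 14 cell had a median of 6035 UMIs (range 1382 to 16181) and 1786 genes, against 1611 UMIs and 783 genes in NK cluster 5 and 1932 UMIs and 874 genes in the T cell clusters 3, 6, 8, 9 and 10 combined. Its median depth was thus 3.75 times that of cluster 5 and 1.24 times that of cluster 9, the cycling T cell cluster, which had 4852 UMIs. A total of 110 barcodes occurred in more than 1 library, 7 of them on cluster 14 cells, and no barcode was in cluster 14 in more than 1 library. Scrublet marked 2 of 14491 cells as doublets, so its own threshold did not work here. The 3% of cells with the highest Scrublet scores in each library included 7 cluster 14 cells (4.24%), 3.52% of cluster 5 and 2.79% of the T cell clusters.

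All levels below are CPM, the UMIs of a gene per 1000000 UMIs of a cluster's summed cells in 1 library. A 3′ UMI counts a molecule once, so levels were not divided by gene length. A ratio between clusters is the log2 ratio of the mean CPM over the 4 libraries, with 5 CPM added to each mean, and its error is the SD of the 4 ratios within libraries. Those libraries are 4 different antibody groups with 1 library each, so the SD is a spread over groups and libraries and not a replicate error, and no test between groups was possible. The clusters were built from the same expression values, so ratios between clusters describe them and test nothing. Intervals are 95% intervals and cover counting error only; those of shares are exact (Clopper-Pearson) and those of ratios of shares are Wald intervals on the log scale.

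The protease genes that led the cluster lie in 1 stretch of the genome. On chromosome 14 (GRCm38, minus strand), Mcpt8 (56082166 to 56085273), Ctsg (56099881 to 56102574), Gzme (56117626 to 56120625), Gzmd (56129556 to 56132608), Gzmg (56156582 to 56159579), Gzmn (56165797 to 56174599), Gzmf (56205263 to 56211417), Gzmc (56231441 to 56234656) and Gzmb (56258838 to 56262260) are 9 genes within 180.095 kb. The 250 bases before the start sites of the 5 granzyme genes C to G are shown because all 5 genes were far higher in cluster 14 than in cluster 5 and the T cell clusters. They are from RefSeq (GRCm38.p6), written 5′ to 3′ on the gene's strand, and capitals mark TGTGGT or its reverse complement ACCACA (the core letters bound by Runx factors) and TGACGTCA (the palindrome bound by CREB and ATF factors):
Gzme chr14:56120626-56120875: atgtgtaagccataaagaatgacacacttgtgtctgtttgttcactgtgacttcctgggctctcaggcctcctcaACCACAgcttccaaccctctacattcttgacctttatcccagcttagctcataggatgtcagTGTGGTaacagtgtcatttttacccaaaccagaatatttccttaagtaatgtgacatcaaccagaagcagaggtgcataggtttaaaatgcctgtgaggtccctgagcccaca
Gzmd chr14:56132594-56132843: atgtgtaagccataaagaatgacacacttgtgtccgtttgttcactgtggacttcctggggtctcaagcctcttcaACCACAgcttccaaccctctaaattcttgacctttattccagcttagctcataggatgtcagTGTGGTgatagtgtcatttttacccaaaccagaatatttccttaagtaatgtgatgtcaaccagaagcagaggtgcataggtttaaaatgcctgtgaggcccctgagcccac
Gzmg chr14:56159580-56159829: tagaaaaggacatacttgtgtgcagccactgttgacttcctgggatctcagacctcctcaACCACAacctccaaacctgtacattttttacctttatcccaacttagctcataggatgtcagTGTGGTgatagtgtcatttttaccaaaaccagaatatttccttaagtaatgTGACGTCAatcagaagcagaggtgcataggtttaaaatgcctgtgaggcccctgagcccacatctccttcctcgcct
Gzmf chr14:56211408-56211657: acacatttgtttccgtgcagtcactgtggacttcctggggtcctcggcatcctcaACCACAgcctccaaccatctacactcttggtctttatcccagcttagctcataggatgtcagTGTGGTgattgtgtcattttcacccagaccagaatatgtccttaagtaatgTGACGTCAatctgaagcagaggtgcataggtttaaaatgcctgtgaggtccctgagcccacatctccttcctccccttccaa
Gzmc chr14:56234658-56234907: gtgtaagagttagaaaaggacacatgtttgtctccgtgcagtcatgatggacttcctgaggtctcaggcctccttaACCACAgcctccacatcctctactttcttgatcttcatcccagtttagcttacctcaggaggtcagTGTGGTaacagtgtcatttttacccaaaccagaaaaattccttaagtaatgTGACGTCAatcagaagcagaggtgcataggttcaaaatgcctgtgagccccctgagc

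These upstream stretches are close copies of each other. Gzme and Gzmd shared 95.6% of aligned bases, Gzme and Gzmg 91.0%, Gzmg and Gzmf 89.6% and Gzmd and Gzmc 86.0%. Each of the 5 held TGTGGT once on each strand, 2 matches in all. Of 32851 mouse promoters of this length, 1.27% held 2 or more matches and 14.0% at least 1. The upper match began between 174 and 195 bases before the start and the lower one between 108 and 133. TGACGTCA occurred once in Gzmg, Gzmf and Gzmc, 77, 82 and 57 bases before the start, and in 1.55% of all promoters. Gzmb and Mcpt8 also held 2 TGTGGT matches, Ctsg held 1 and Gzmn none. A match is a run of letters, and binding was not measured.

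The transcripts could in principle share reads as well as promoters. Among Gzmb, Gzmc, Gzmd, Gzme, Gzmf, Gzmg, Gzmn, Ctsg and Mcpt8, no stretch of 98 bases, the length of the cDNA read, in the last 400 bases of a reference transcript occurred in another of the 9. The mice are 129S6 and the reference is that of another strain, so reads with strain differences were not covered by this check.

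Gzmg, the gene that leads the cluster, reached 3304 CPM in control cells, 4575 in anti-PD-1 cells, 2142 in anti-CTLA-4 cells and 1535 in combination cells. In cluster 5 it was between 0 and 8.05 CPM in the 4 libraries (11 UMIs in all), and in the T cell clusters it averaged 6.29 CPM. Every cluster 14 library was above every library of those cells, by a log2 ratio of 8.19 ± 0.54 (SD, n = 4 libraries) to cluster 5 and 8.001 ± 1.09 to the T cell clusters.

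Gzmd, its neighbour, stood at 5076, 6250, 4005 and 3489 CPM in the same order of libraries, which is kept below. Cluster 5 averaged 56.1 CPM and the T cell clusters 82.5. The log2 ratio to cluster 5 was 6.27 ± 1.61, a wide spread beside cluster 5 levels that ran from 15.4 to 101 CPM.

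Gzme was at 1976, 3021, 1182 and 1319 CPM, with 12.7 CPM on average in cluster 5 (log2 ratio 6.73 ± 1.78). Gzmf was at 3232, 6624, 4946 and 3235 CPM, with 42.2 CPM in cluster 5 (6.58 ± 1.57). For both genes the 4 libraries of cluster 14 lay far above all libraries of cluster 5 and of the T cell clusters, without overlap. Gzmc was at 5822, 6211, 4695 and 5472 CPM, the narrowest spread of the 5, and it was also the one with a clear level in cluster 5, at 512 CPM (320 to 777 over libraries), so its ratio was smaller, 3.43 ± 0.69.

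Summed, Gzmc to Gzmg took 19410, 26681, 16969 and 15050 CPM, a mean of 1.95% of all UMIs of the cluster. The same sum was 628 CPM in cluster 5, 367 CPM in the T cell clusters and 607 CPM in cluster 9. No library of either comparison group came near the lowest cluster 14 library.

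**Figure D1:**
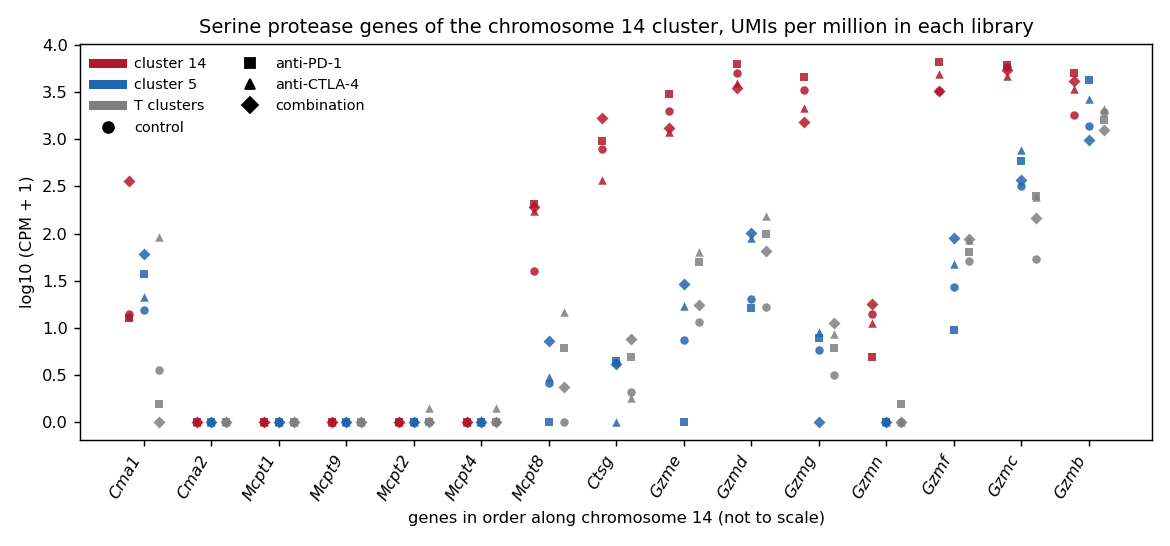
Levels of the protease genes of the chromosome 14 cluster in genomic order (x axis), as log10 of CPM + 1 (y axis), with 1 point per library (shape) for cluster 14, NK cluster 5 and the T cell clusters (colour). Gzmd of cluster 14 lies between 3489 and 6250 CPM against a cluster 5 mean of 56.1 CPM, while Gzmn, between Gzmg and Gzmf, has 12 UMIs in all of cluster 14.

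The high stretch did not include every gene of the locus. Gzmn, which lies between Gzmg and Gzmf, had 12 UMIs in the whole of cluster 14 (13.1, 3.93, 10.3 and 16.9 CPM). On the far side of Gzme, Ctsg reached 798, 968, 373 and 1679 CPM against 2.45 CPM in cluster 5 (log2 ratio 7.01 ± 0.62), and Mcpt8 reached 39.3, 205, 173 and 190 CPM against 2.48 CPM (4.39 ± 1.12). In the control library 92 of 122 Ctsg UMIs came from 1 cell, and without it the control level was 214 CPM. Beyond Mcpt8, the mast cell protease genes Cma2, Mcpt1, Mcpt9, Mcpt2 and Mcpt4 had 0 UMIs among 1129216, and Cma1, the mast cell chymase, had 96, of which 63 were in 1 combination cell.

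Gzmb and Gzma, the familiar granzymes, did not separate cluster 14 from cluster 5 in the same way. Gzmb was at 1812, 5035, 3385 and 4161 CPM in cluster 14 and averaged 2334 CPM in cluster 5 (987 to 4253). The ranges overlap, but within each library cluster 14 was the higher (1392, 4253, 2703 and 987 CPM in cluster 5), with a log2 ratio of 0.62 ± 0.88. Gzma was at 6555, 14101, 11107 and 10297 CPM against 7936 CPM in cluster 5 (0.41 ± 0.25) and 824 CPM in the T cell clusters (3.67 ± 0.50). Gzmk, a granzyme of memory-like T cells, was at 78.5, 169, 98.8 and 101 CPM, above the 32.3 CPM of cluster 5, and Gzmm had 2 UMIs. Of the 8 granzyme genes over 25 CPM on average in the 2 clusters, 6 were more than 2-fold higher in cluster 14 and 0 lower. Their median log2 ratio was 4.85, and that of the list without a filter 2.55. Gzmg and Gzme, under 25 CPM in cluster 5, passed this limit only through cluster 14. Gzmg and Gzmd are also among the genes that mark out the cluster, as are Ctsg, Mcpt8 and Ncr1. The granzyme counts therefore describe its choice and test nothing. Over all 4133 genes past 25 CPM the median was -0.12. Of these, 140 genes (3.39%) were more than 2-fold higher and 262 (6.34%) more than 2-fold lower.

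Of the other parts of the killing machinery, Prf1 (perforin) was at 150, 464, 255 and 249 CPM against 109 CPM in cluster 5 (log2 ratio 1.32 ± 0.47). In the anti-PD-1 library 68 of 118 Prf1 UMIs came from 1 cell, and the level without it was 202 CPM. Serpinb9b, an inhibitor of granule proteases, was at 183, 382, 301 and 254 CPM against 113 CPM (1.27 ± 0.09). Nkg7, a granule membrane protein, was at 2630, 2525, 2656 and 2482 CPM and overlapped cluster 5, which averaged 3339 CPM. Over the cytolysis list of 15 genes the median ratio to cluster 5 was -0.05, with 3 genes more than 2-fold higher and 0 lower. Of all genes, 3.39% were higher and 6.34% lower.

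The share of cells with a UMI of these genes depends on depth, so each cell was also thinned to 1000 UMIs, which left out 108 cells of cluster 5, 260 of the T cell clusters and 0 of cluster 14. All 165 cluster 14 cells had Gzmc (92.7% after thinning, against 16.2% of cluster 5 and 0.526% of the macrophage clusters, which serve as a background for free RNA with a median of 3595 UMIs). Gzmd was found in 92.7% of cells (75.8% thinned) and Gzme in 87.3% (51.5% thinned), with thinned shares of 1.81% and 0.678% in cluster 5 and 0.645% and 0.204% in macrophages. The other genes were seen in part of the cluster. Gzmf had a UMI in 49.1% of cells (40.6% thinned), Gzmg in 48.5% (32.7% thinned), Mcpt8 in 29.7% (6.67% thinned) and Ctsg in 26.7% (17.6% thinned). Their thinned shares in macrophages were 0.441%, 0.390%, 0.017% and 0.170%.

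Within the cluster the expression of the leading genes was uneven. Per cell, Gzmc to Gzmg took a median of 1.12% of UMIs, with quartiles of 0.573% and 2.15% and a range from 0.0670% to 10.3%. The 16 cells with the most UMIs of a gene held 28.5% of all Gzmc UMIs, 43.5% of Gzmd, 51.5% of Gzme, 58.6% of Gzmf, 68.6% of Gzmg and 80.1% of Ctsg. The 16 deepest cells held 19.1% of all UMIs. The 16 cells were picked anew for each gene, which raises its share, so the depth value is no like baseline. By the same measure Ncr1 had 27.3% and Gzma 34.1%. A median cell had 29 UMIs of Gzmc, 13 of Gzmd and 4 of Gzme but 0 of Gzmf and 0 of Gzmg.

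At least 1% of UMIs came from Gzmc to Gzmg in 90 of the 165 cells, which were 12 control cells, 17 anti-PD-1 cells, 44 anti-CTLA-4 cells and 17 combination cells. Outside cluster 14 this held for 11 listed cells, of which 6 were in the cycling T cell cluster 9, 3 in T cell cluster 3 and 2 in cluster 5.

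**Figure D2:**
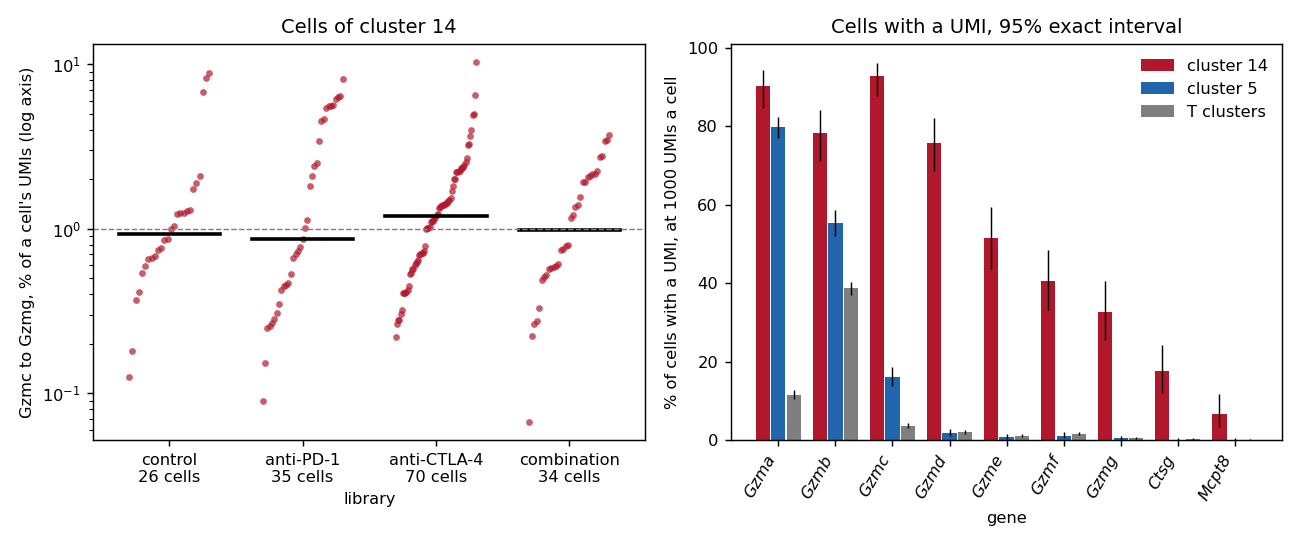
Left, percent of a cell's UMIs from Gzmc to Gzmg (log axis) for each cluster 14 cell by library, with a bar at the median and a dashed line at 1%. Right, percent of cells with a UMI of each gene after thinning to 1000 UMIs a cell, with 95% exact intervals, in cluster 14, cluster 5 and the T cell clusters: Gzmc is found in 92.7% and 16.2% of the first pair and Ctsg in 17.6% and 0.113%.

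Ctsg, Gzmg and Gzmf were in part found in the same cells. After thinning, 27 of 29 cells with Ctsg (93.1%) also had Gzmg, against 27 of 136 cells without Ctsg (19.9%). Of 54 cells with Gzmg, 70.4% had Gzmf, against 26.1% of the 111 without it. Gzmb did not follow: 79.6% of cells with Gzmg and 77.5% of those without had a Gzmb UMI. Mcpt8, seen in 11 thinned cells, was in 13.0% of cells with Gzmg and 3.60% of those without. For Gzmf the shares with Mcpt8 were 7.46% and 6.12%, and for Ctsg 10.3% and 5.88%. On all UMIs the Mcpt8 shares were 48.1% and 11.9% for Gzmf, and 65.9% and 16.5% for Ctsg. Cells with these genes were deeper, with medians of 7174 and 5208.5 UMIs for Gzmf and 8955.5 and 5510 for Ctsg. The 41 cells with the highest Gzmg share were deeper than the other 124 (medians of 8690 and 5457 UMIs). On summed counts they had higher levels of Ctsg (log2 ratio 4.04), Gzmf (2.96), Gzme (1.61), Mcpt8 (1.56) and Gzmd (1.24). The difference was smaller for Gzmc (0.58). Havcr2 (1.67), Spp1 (1.65), Tnfrsf9 (1.38) and Prf1 (1.26) went with them, and the NK receptor Ncr1 (-0.70) went the other way in all 4 libraries. Klrb1c had a ratio of -0.83, with 0.21 and 0.11 in control and anti-PD-1 cells and -1.81 and -0.48 in anti-CTLA-4 and combination cells. These cells were chosen by Gzmg, so the values describe them and carry no test, and the part of depth was not tested.

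Cluster 14 carried the NK receptor Ncr1 in every library, at 831, 574, 671 and 609 CPM. Cluster 5 averaged 975 CPM (671 to 1357) and the T cell clusters 38.4 CPM (7.66 to 60.01). Cluster 14 was below cluster 5 within every library (log2 ratio -0.53 ± 0.40) and above the T cell clusters (3.96 ± 1.03). An Ncr1 UMI was seen in 89.1% of cluster 14 cells, and after thinning in 41.8%, against 55.7% of cluster 5, 2.07% of T cells and 0.221% of macrophages. Because Ncr1 is among the genes that mark out the cluster, these values describe its choice and test nothing.

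Other NK genes fell into groups. Tyrobp (DAP12) and Fcer1g, the signalling adaptors of NK receptors, stood at 3834, 2848, 2910 and 3083 CPM and at 1354, 1695, 1042 and 1252 CPM, against 2691 and 1344 CPM in cluster 5. Both are also expressed by myeloid cells. Klrk1 (the activating receptor NKG2D) was at 517 to 594 CPM against 1105 CPM (log2 ratio -0.99 ± 0.17), and Klrb1c (NK1.1) at 111, 102, 156 and 123 CPM against 336 CPM (-1.41 ± 0.81). Klrd1, the partner of NKG2 receptors, averaged 633 CPM against 816 CPM. Klrg1, an inhibitory receptor of mature NK and effector T cells, was the exception, at 255, 378, 472 and 567 CPM against 66.2 CPM (2.57 ± 0.28), with no overlap between the clusters.

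The Ly49 receptor genes were among the lowest against cluster 5. Klra9 (-3.03), Klra10 (-2.87), Klra8 (-2.84) and Klra3 (-2.68) were in the 10 lowest ratios of all genes tested, and Klra4 was at 183, 126, 305 and 359 CPM against 953 CPM. Klra7, of the same family, was at 687, 366, 437 and 664 CPM against 745 CPM (-0.47 ± 0.50). These genes are near copies and differ between mouse strains, so the split of reads between single members is uncertain. Cd7, a surface protein of NK and T cells, was at 91.6, 19.7, 72.1 and 38.1 CPM against 572 CPM (-3.26 ± 0.65).

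Eomes and Tbx21 (T-bet) are the transcription factors that direct NK development. Eomes was at 118, 110, 299 and 114 CPM, against 156 CPM in cluster 5 and 13.2 CPM in T cells, and 54 of the 145 Eomes UMIs of the anti-CTLA-4 library came from 1 cell. Tbx21 had 22 UMIs, a mean of 18.7 CPM against 57.6 CPM (-1.40 ± 0.47). Irf8, a transcription factor used by NK and myeloid cells, was at 1106, 972, 1244 and 1247 CPM against 684 CPM (0.74 ± 0.46). Over the NK list, 28 genes were tested against cluster 5, with a median ratio of -0.47. Of these, 2 were more than 2-fold higher and 9 more than 2-fold lower, beside 3.39% and 6.34% of all genes. Against the T cell clusters 25 were tested, with a median of 1.95, 16 more than 2-fold higher and 2 lower. Of all 4157 genes, 172 (4.14%) were more than 2-fold higher and 346 (8.32%) lower. Eomes, at 13.2 CPM in T cells, passed this filter only through cluster 14. The filter thus favoured higher calls, and the count describes the list and tests nothing. The list summed to 23616 CPM in cluster 14, 24828 in cluster 5 and 6569 in the T cell clusters. It includes the granule genes Gzma and Prf1, and Gzma was at 6555 to 14101 CPM in the cluster 14 libraries. A large part of the sum is therefore a granzyme, and the sum is not a level of NK receptors.

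The genes of the T cell receptor complex were low. Cd3d was at 91.6, 23.6, 32.9 and 12.7 CPM, Cd3e at 39.3, 23.6, 6.18 and 0 CPM, and Cd3g at 131, 15.7, 12.4 and 25.4 CPM. In the T cell clusters the 3 genes averaged 1511, 664 and 1514 CPM, above every cluster 14 library without overlap, and in cluster 5 they averaged 85.7, 41.9 and 106 CPM. The control library was the highest of the 4 for each, and 14 of its 20 Cd3g UMIs came from 1 cell.

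Cd5 and Bcl11b, a T cell surface protein and a factor that fixes T cell identity, had 0 UMIs. With 3 UMIs as the limit that a count of 0 allows over the cluster, they were at least 46.1-fold and 28.5-fold lower than in the T cell clusters. Foxp3, which defines regulatory T cells, also had 0 (at least 7.96-fold lower). Cd4 had 3 UMIs, Cd8a 12, Cd8b1 9 and Lat, an adaptor of receptor signalling, 12. Thy1, which T cells share with activated NK cells, was high at 621, 736, 653 and 596 CPM, against 322 CPM in cluster 5 and 706 CPM in T cells. The list of T cell genes had 23 members tested against the T cell clusters, with a median log2 ratio of -2.94. Of these, 20 were more than 2-fold lower and 0 higher, beside 8.32% and 4.14% of all genes. The constant regions of the T cell receptor genes were not analysed here.

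Counted by cell, 125 of the 165 cells (75.8%) had an Ncr1 UMI and none of Cd3d, Cd3e or Cd3g, 22 had both, 1 had Cd3 without Ncr1 and 17 had neither. A Cd3 UMI was thus found in 23 cells (13.9%), against 9.26% of cluster 5 and 96.5% of the T cell clusters. Gene by gene, the shares of cluster 14 and cluster 5 were 8.48% and 6.55% for Cd3d, 6.06% and 4.43% for Cd3e and 5.45% and 5.94% for Cd3g. Thinned to 1000 UMIs a cell, they were 1.82% and 4.86% for Cd3d, 0.606% and 2.60% for Cd3e and 1.21% and 4.86% for Cd3g. The order thus turned for Cd3d and Cd3e, while Cd3g was lower in cluster 14 both ways. Thinned shares in macrophages were 1.10%, 0.967% and 0.696%. In 6 cells there were 5 or more Cd3 UMIs, with a maximum of 25. As Ncr1 helps to mark out the cluster, the counts of cells with Ncr1 describe its choice.

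**Figure D3:**
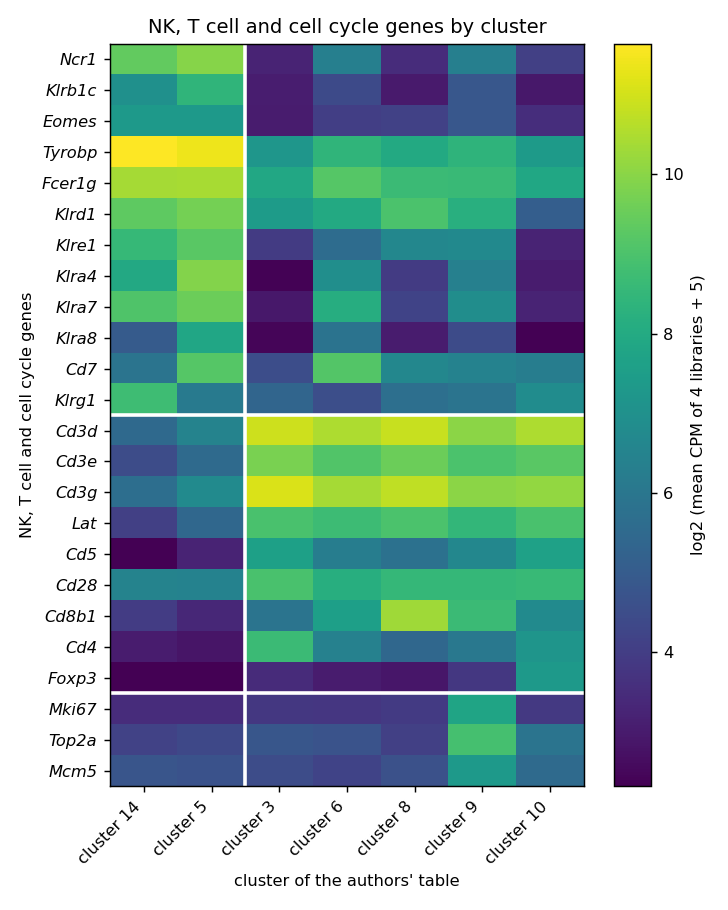
Heat map of NK genes (top block), T cell genes (middle) and cell cycle genes (bottom) in rows, with clusters in columns and colour for log2 of the mean CPM over 4 libraries plus 5. Ncr1 is at 671 CPM in cluster 14 and 975 CPM in cluster 5, Cd3d at 40.2 and 85.7 CPM, and Mki67 is high only in cluster 9 of the clusters drawn, at 210 CPM.

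Cluster 14 showed few transcripts of dividing cells. Mki67, the proliferation marker, had 8 UMIs (6.54, 0, 10.3 and 8.46 CPM), close to the mean of 6.24 CPM in cluster 5, where cluster 9 averaged 210 CPM. Top2a, which untangles DNA before mitosis, had 16 UMIs (0, 23.6, 14.4 and 12.7 CPM), against 15.1 CPM in cluster 5 and 470 CPM in cluster 9. Ccnb1, a mitotic cyclin, had 5 UMIs, and Mcm5, a part of the replication helicase, had 30. Aurkb, a mitotic kinase, had 0, at least 44.97-fold lower than in cluster 9.

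The G2 and M phase genes summed to 520 CPM in cluster 14, 563 in cluster 5 and 8009 in cluster 9, and the S phase genes to 773, 793 and 4307 CPM. Against cluster 9 all 25 G2 and M genes tested were more than 2-fold lower (median -3.89), as were 22 of 23 S phase genes (median -2.39). Of all 4224 genes, 501 (11.9%) were lower. Against cluster 5 the same filter let through 3 of 27 G2 and M genes and 7 of 24 S phase genes. Genes under 25 CPM in cluster 14, such as Top2a and Aurkb, passed it only through cluster 9. The filter therefore favoured lower calls, and these counts describe the lists and test nothing. The median depth of cluster 14 was above that of cluster 9.

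Cluster 14 was also set beside single T cell clusters. Cluster 8 is the one with the most Cd8b1, and cluster 14 had a Cd8b1 log2 ratio to it of -6.30 and a Cd8a ratio of -5.40. Ncr1 was higher in cluster 14 (5.89), as were Gzma (3.28 ± 0.69) and Prf1 (2.58 ± 0.25), but Gzmb was not set apart (0.14 ± 0.64, with 3265 CPM in cluster 8). Of 25 NK genes tested against cluster 8, 15 were more than 2-fold higher and 4 lower, and of 20 T cell genes 18 were lower and 0 higher, where 218 of all 4045 genes (5.39%) were higher and 326 (8.06%) lower. Against cluster 9, 16 of 25 NK genes were more than 2-fold higher and 18 of 22 T cell genes lower. Of all 4224 genes, 205 (4.85%) were higher and 501 (11.9%) lower. Ncr1, at 6.37 CPM in cluster 8, passed the filter there only through cluster 14. Cd8a and Cd8b1, at 12.0 and 10.8 CPM in cluster 14, passed it only through cluster 8. The filter thus favoured higher NK calls and lower T cell calls, and the counts describe the lists and test nothing.

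Transcripts of other cell types with the same proteases were sought because Mcpt8 and Ctsg are known from them. Of 12 basophil genes, 8 had 0 UMIs, among them Fcer1a, Ms4a2, Cd200r3, Gata2, Il4 and Prss34. The basophil list summed to between 4842 and 6561 CPM only because it contains Ifitm1, described next. Of 10 mast cell genes 6 were at 0, and of the granulocyte precursor genes Elane, Prtn3, Ms4a3 and Cebpe were at 0 and Mpo had 1 UMI. Of 11 neutrophil genes 7 were at 0, including Ly6g and Cxcr2, and the list summed to between 20.6 and 58.9 CPM. Macrophage genes summed to 4874, 4118, 752 and 960 CPM, within the range of cluster 5 or below it (1154 to 5247 CPM), with 54.9% of these UMIs in 5 cells. Their part in the other results was not tested.

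Outside the proteases, several genes were far higher in cluster 14 than in cluster 5. Ifitm1, an interferon-inducible membrane protein, was at 6522, 5975, 5162 and 4635 CPM against 863 CPM (log2 ratio 2.68 ± 0.84). Spp1 (osteopontin, a secreted matrix protein and cytokine) was at 9172, 4657, 5628 and 6089 CPM against 917 CPM (2.79 ± 0.61) and 154 CPM in the T cell clusters, with 720 of 1402 control UMIs in 1 cell and 4856 CPM without it. Dsc2 (desmocollin, a desmosomal adhesion protein) was at 222, 185, 200 and 300 CPM against 13.0 CPM (3.69 ± 0.47). These 3 genes did not overlap between the clusters. The share of all genes without overlap is not given, here or for the genes above. Avil, an actin-binding protein (3.30 ± 0.95), and Cd55, a complement regulator (3.00 ± 0.63), were also higher in all 4 libraries. Car2 (carbonic anhydrase) was at 2087, 995, 1017 and 968 CPM against 549 CPM (1.20 ± 0.44).

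Receptors of activated or chronically stimulated lymphocytes were in part higher. Havcr2 (TIM-3) was at 78.5, 177, 152 and 165 CPM against 12.8 CPM in cluster 5 (log2 ratio 3.06 ± 1.14), beside 109 CPM in the T cell clusters. Tnfrsf9 (4-1BB, a costimulatory receptor) was at 157, 291, 272 and 288 CPM against 80.9 CPM (1.58 ± 0.54). Ctla4 had 74 UMIs, at 52.3, 66.9, 61.8 and 80.3 CPM, above the 22.1 CPM of cluster 5 and below the 219 CPM of T cells. Pdcd1 (PD-1) had 42 UMIs, with 0 in the combination library, and averaged 36.4 CPM against 236 CPM in T cells. Lag3 averaged 86.4 CPM against 113 CPM in cluster 5 and 509 CPM in T cells. Of the 7 inhibitory receptor genes tested against cluster 5, 3 were more than 2-fold higher (Havcr2, Klrg1 and Ctla4) and 0 lower, with a median of -0.16. Of all genes, 3.39% were higher and 6.34% lower. Havcr2 and Ctla4 were under the filter limit in cluster 5 and passed it only through cluster 14. The filter therefore favoured higher calls for this pair, and the count describes the list and tests nothing. Tnfrsf4 (OX40), abundant in these T cells, had 1 UMI.

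4 chemokine genes were among the 10 lowest ratios to cluster 5. Ccl5 (RANTES), which draws T cells and monocytes, was at 196, 307, 47.4 and 50.7 CPM where cluster 5 averaged 6309 CPM (3698 to 9695), a log2 ratio of -5.35 ± 1.58. Ccl4 (-3.99), Ccl3 (-3.29) and Xcl1 (-2.97), the last a signal to cross-presenting dendritic cells, followed. The 4 chemokines together summed to 218 CPM in cluster 14 and 7202 CPM in cluster 5. Ifng had 10 UMIs, 8.22 CPM on average against 25.7 CPM, and Csf2 had 0, at least 2.80-fold lower than in cluster 5 and 20.8-fold lower than in T cells. Of 10 cytokine genes tested, 5 were more than 2-fold lower and 1 higher, which was Spp1, described above. Of all genes, 6.34% were lower and 3.39% higher.

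Recirculation genes that were past 2-fold were all lower than in cluster 5. Klf2, the transcription factor that keeps lymphocytes in circulation, was at 91.6, 31.5, 67.95 and 110 CPM against 512 CPM (log2 ratio -2.69 ± 0.85). S1pr5, which NK cells use to leave tissue, had 0 UMIs, at least 4.85-fold lower. Of 8 recirculation genes tested, 5 were more than 2-fold lower and 0 higher, with a median of -1.56, beside 6.34% of all genes. Of genes on other lists, Tcf7 (-1.73 ± 0.81), Bcl2 (-1.70 ± 0.51), Il18r1 (-2.02 ± 0.54), Cd27 (-1.97 ± 0.47) and Cd2 (-2.16 ± 0.29) were lower in all 4 libraries. The list of innate lymphoid type 1 and tissue-residency genes had 4 of 7 members more than 2-fold lower and 0 higher, although Itga1 (CD49a), with 27 UMIs, was above cluster 5 in each library. Itga2 (CD49b) had 0 UMIs, at least 2.05-fold lower.

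The remaining lists describe general cell state, again against cluster 5. Of all genes tested, 3.39% were more than 2-fold higher and 6.34% lower, with a median of -0.12. Of 10 immediate early genes, 4 were more than 2-fold lower and 0 higher (median -0.87), with Jun at -1.14 ± 0.31. Of 10 interferon-response genes, 3 were more than 2-fold lower, among them Isg15 (-1.51 ± 0.36) and Irf7 (-1.24 ± 0.63), and 0 higher, in the same cells in which Ifitm1 was high. Glycolysis genes had a median of 0.29, with 11 of 15 higher and 0 past 2-fold, and nucleolar genes a median of 0.31, with 17 of 20 higher and 1 past 2-fold. Oxidative phosphorylation genes had a median of 0.07. The interleukin receptor and STAT5 pathway list had 5 of 16 genes more than 2-fold lower and 1 higher, and Il2rb, the IL-2 and IL-15 receptor chain, was at 379, 299, 352 and 452 CPM against 405 CPM, an overlapping range.

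**Figure D4:**
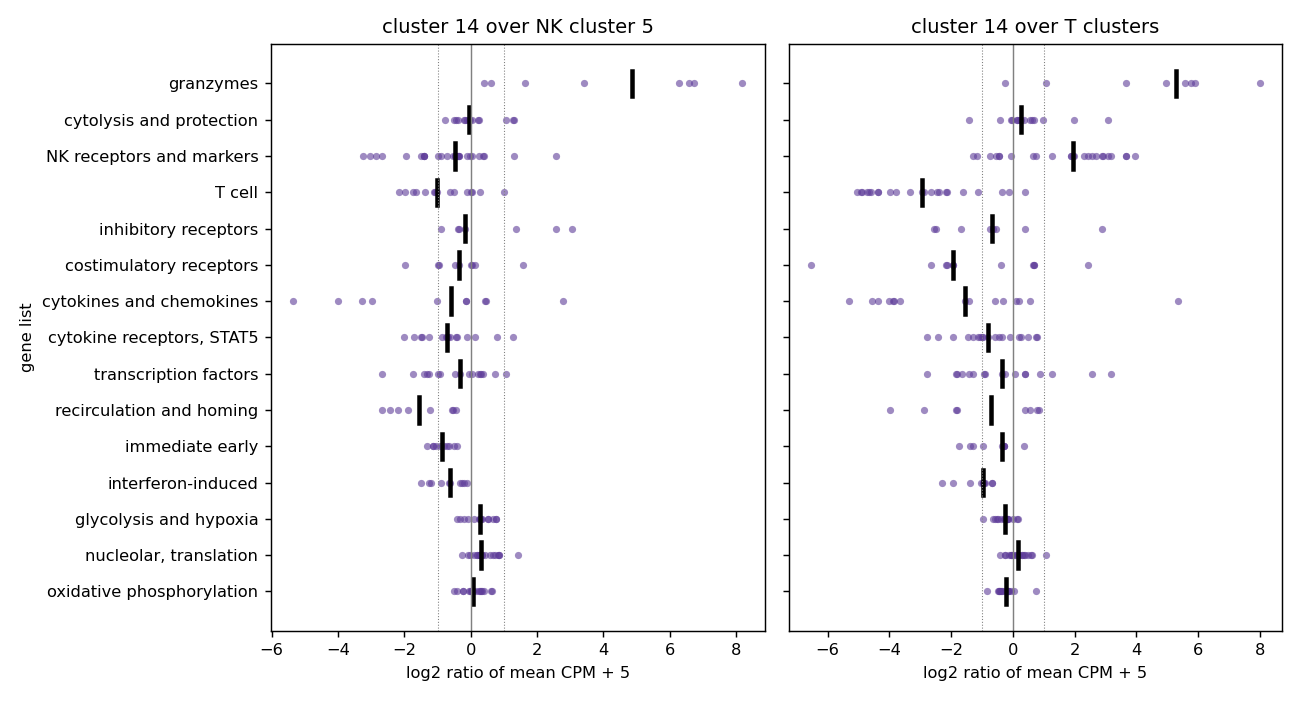
Log2 ratio of mean CPM + 5 in cluster 14 to NK cluster 5 (left) and to the T cell clusters (right), with 1 point per gene past the filter and a bar at the median of each list. The granzyme medians are 4.85 and 5.27, the NK medians -0.47 and 1.95, and the T cell medians -1.01 and -2.94.

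Cluster 14 made up 0.685% of the listed control cells (interval 0.448% to 1.003%), 1.02% of anti-PD-1 cells (0.714% to 1.42%), 2.10% of anti-CTLA-4 cells (1.64% to 2.64%) and 0.862% of combination cells (0.598% to 1.20%). The anti-CTLA-4 share was the highest, and its interval did not overlap the other 3. The ratio to control was 3.06 (1.96 to 4.79) for anti-CTLA-4, 1.49 (0.902 to 2.48) for anti-PD-1 and 1.26 (0.756 to 2.09) for the combination. The intervals of the last pair include 1, so on the base of all listed cells a difference was not detectable at these cell numbers. Anti-CTLA-4 was 2.05 times anti-PD-1 (1.37 to 3.07) and 2.43 times the combination (1.62 to 3.66). With 1 library a group, the antibody and the library cannot be told apart, and mice within a library vary by an amount that was not measured.

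The order changed with the denominator. Cluster 5 was 8.17%, 8.81%, 6.56% and 4.13% of listed cells, and of the cells of clusters 5 and 14 together cluster 14 was 7.74% (5.12 to 11.1), 10.4% (7.36 to 14.2), 24.2% (19.4 to 29.6) and 17.3% (12.3 to 23.3). On that base the combination was 2.23 times control (1.38 to 3.60) and anti-CTLA-4 3.13 times (2.05 to 4.77). Anti-CTLA-4 was then 1.40 times the combination (0.972 to 2.03), an interval that includes 1. Of the cells of clusters 14, 5 and the T cell clusters together the shares were 1.80%, 3.39%, 6.60% and 2.34%. The ratios to control were then 1.88 (1.14 to 3.11) for anti-PD-1, 3.67 (2.35 to 5.71) for anti-CTLA-4 and 1.30 (0.783 to 2.15) for the combination. The anti-PD-1 interval excludes 1 on this base only among the 3 given here.

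**Figure D5:**
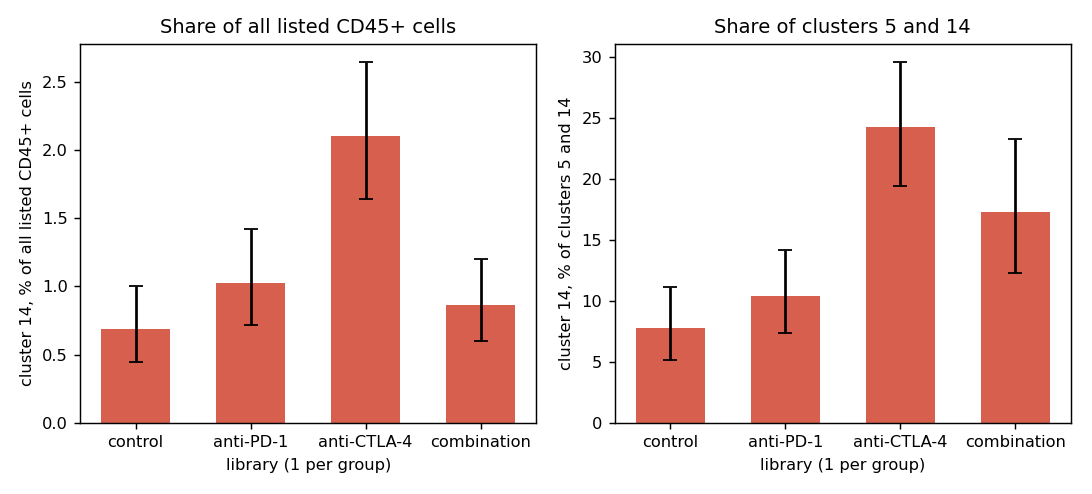
Share of cluster 14 (percent, y axis from 0) by antibody group, of all listed cells (left) and of clusters 5 and 14 together (right), with 95% exact binomial intervals for counting error. Anti-CTLA-4 is highest on both bases, at 2.10% and 24.2%, and the combination moves from 0.862% to 17.3%.

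The authors' cell list left out 127 barcodes of the matrices, 124 of which had over 3000 genes, as did 0 of the 165 cluster 14 cells. Of the 127, 24 had at least 1% of UMIs from Gzmc to Gzmg (2, 6, 11 and 5 by library), a number to set beside the 90 cells of cluster 14 over the same limit. They had a median of 18272.5 UMIs, and 21 of the 24 exceeded the 16181 UMIs of the deepest cluster 14 cell. Their Gzmg level was 8395 CPM, Ncr1 415 CPM, Cd3d 4.30 CPM and Mki67 10.7 CPM, and 23 of the 24 had an Ncr1 UMI. Whether they are single cells was not tested. With these barcodes added, the shares of all barcodes were 0.729%, 1.19%, 2.40% and 0.983%.

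Within cluster 14 the antibody groups differed in several proteases, each in 1 library of 26 to 70 cells. Against control, the Gzmc to Gzmg sum had a log2 ratio of 0.46 (0.40 to 0.52) in anti-PD-1 cells, -0.19 (-0.25 to -0.13) in anti-CTLA-4 cells and -0.37 (-0.44 to -0.30) in combination cells. Without the top cell of each library the ratios were 0.68, 0.06 and -0.15, so the sign for anti-CTLA-4 rested on 1 control cell. The per-cell medians of the sum were 0.933%, 0.870%, 1.20% and 0.980% of UMIs, an order that differs from that of the summed levels.

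Gzma and Gzmb were lower in the control library than in the other 3. Gzma had log2 ratios to control of 1.11, 0.76 and 0.65, and Gzmb of 1.47, 0.90 and 1.20, in the usual order of the treated libraries. In per-cell medians, Gzma was 2466 CPM in control cells and 15038, 10674 and 8542 CPM in the others, and Gzmb 1493 against 2522, 2184 and 2008 CPM. Klrg1 was also lowest in control (0.57, 0.89 and 1.15). Bcl2, the survival factor, was highest in control, at 275 CPM against 138, 130 and 59.2 CPM (-0.997, -1.08 and -2.21). Runx3 (-0.92, -1.41 and -1.34) and Car2 (-1.07, -1.04 and -1.11) were also highest in control. The summed glycolysis genes were higher in each treated library, by 0.82, 0.75 and 0.86. The summed G2 and M genes had ratios of 1.04, 0.57 and 0.87, which rested in part on single cells. In the combination library 1 cell held 50.4% of the 141 G2 and M UMIs, and in the anti-PD-1 library 1 cell held 30.4%. G2 and M ratios without the top cells were not computed, so a rise across the cells of each treated library is not shown. Macrophage genes moved with these contrasts. All 7 tested were more than 2-fold lower than control in anti-CTLA-4 cells (median -2.77), beside 5.46% of all genes. All 7 were lower in combination cells (-2.40), beside 7.79%. In anti-PD-1 cells 3 of 8 were lower (-0.19), beside 5.25%, and 0 higher. In the control library 1 cell held 39.7% of UMIs of the macrophage gene Lyz2, and 1 cell 92.7% of those of Ms4a7. Per-cell medians of Lyz2 were closer, at 388 CPM in control, 229 in anti-CTLA-4 and 192 in combination cells. A shift across the control cells was not tested, nor was the part of macrophage genes in the differences. All 3 ratios share the control library of 26 cells.

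Of the genes with 30 or more UMIs in the pair of libraries, 154 of 1694 (9.09%) were more than 2-fold higher with anti-PD-1 and 89 (5.25%) lower, 201 of 2455 (8.19%) and 134 (5.46%) with anti-CTLA-4, and 139 of 1617 (8.6%) and 126 (7.79%) with the combination. The genes with the most extreme ratios mostly came from single cells: for the 30 ratios at the ends, from 45.7% to 98.7% of the higher library's UMIs were in 1 cell. Cx3cr1, a chemokine receptor, had 76 of its 77 UMIs in 1 anti-CTLA-4 cell. Ctsg showed the same on a smaller scale, with ratios of 0.28, -1.10 and 1.07 against a control level in which 1 cell held 92 of 122 UMIs. Without the top cell of each library the ratios were 1.95, 0.55 and 2.67.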

How the data were processed

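The deposited count matrices hold UMI counts per gene and barcode, not normalized, for 27998 genes in 4 libraries of sorted CD45+ cells. They were made by the authors with Cell Ranger, the mm10 genome and Seurat, per the submitters' processing notes, with versions not given in the sources used. Cluster numbers come from the authors' deposited cell tables, and 14491 of 14493 listed cells had a matrix column. Each library's UMIs were summed per cluster and written as CPM. Per-cell medians in each library ran from 2549 to 2991 UMIs over all listed cells.

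Genes with a mean of 25 CPM or more over the 2 classes compared were compared at a 2-fold limit, with 5 CPM added to each mean. Between libraries, genes with 30 or more UMIs in the pair were used. With 1 library per group no test was made. Shares have exact Clopper-Pearson intervals, CPM ratios between libraries exact conditional binomial ones and ratios of shares Wald intervals on the log scale, all at 95%, and a count of 0 was bounded by 3 counts over the cluster. Named genes are a list of key genes, the marker and locus genes, the 10 highest and 10 lowest ratios per cluster comparison, up to 4 members per list and the 5 highest and 5 lowest ratios per antibody group. The sums of Gzmc to Gzmg and of chemokines, the Gzmg-high cells and the unlisted barcodes were chosen after values were seen. The 33 gene lists and the choice of cells were made with earlier results of these data known, and 14 listed genes are not analysed here. Some genes that the rule names are not reported here. Scripts were tested on simulated data. Promoters came from RefSeq and gene positions from GENCODE M21. Tools were Python 3.11.15, numpy 2.4.6, scipy 1.17.1, pandas 2.3.3, scanpy 1.11.5 (Scrublet), biopython 1.88 and matplotlib 3.10.9. Alternatives covered the pseudocount, filters, size factors, thinning, doublet scores, denominators, leaving out a library and leaving out the cell with the most UMIs.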

Additional observations from a re-analysis of the deposited data

Results flagged for a closer look

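The authors' cell list leaves out 24 barcodes with at least 1% of their UMIs from Gzmc to Gzmg, a signal of cluster 14 in data that the cluster comparisons do not use. All 24 had over 3000 genes. Their Gzmg level was 8395 CPM and their median depth 18272.5 UMIs.

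3 genes had ratios of cluster 14 to cluster 5 of opposite sign in different libraries, each beyond its counting interval. No test of the difference between libraries was possible with 1 library per group. Eomes had a log2 ratio of 1.51 in the anti-CTLA-4 library and -0.65 in the anti-PD-1 library, and 54 of its 145 anti-CTLA-4 UMIs were in 1 cell. Cd3g had 0.91 in the control library, -3.76 in anti-CTLA-4 cells and -2.51 in combination cells, and 14 of its 20 control UMIs were in 1 cell. Il2rb had 0.48 with the combination and -0.63 with anti-PD-1. In the combination library 43 of its 107 UMIs were in 1 cell, and its level went from 452 to 288 CPM without that cell.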

How the results depend on the processing

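No paired analysis was possible because each group had 1 library and the labels give no replicate numbers. The log2 ratio of the anti-CTLA-4 share to control, 1.61, moved by less than its counting interval with every denominator tried, and the combination share went from 0.33 to 1.16 on the base of clusters 5 and 14.

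Against cluster 5 the 140 genes more than 2-fold higher became 79 with a pseudocount of 20 CPM, 39 with a minimum of 100 CPM, 296 without a filter and 263 after thinning, and the 262 lower genes became 123, 59, 647 and 457. The granzyme median of 4.85 became 6.27 with a minimum of 100 CPM and 2.55 without a filter. The S phase median of -0.36 became 0.11 without a filter, and ran from -0.42 to 0.016 when 1 library was left out. The G2 and M median of 0.38, over 3 genes, became -0.61 with a minimum of 100 CPM and -0.65 after thinning, and ran from 0.00333 to 0.53 when 1 library was left out. These cell cycle medians therefore have no settled sign against cluster 5.

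Against the T cell clusters the 172 higher genes became 48 with a minimum of 100 CPM, 391 without a filter and 307 after thinning. The 346 lower genes became 224 with a pseudocount of 20 CPM, 104 with a minimum of 100 CPM and 886 without a filter. The T cell list median of -2.94 became -2.24 with a pseudocount of 20 CPM and -3.42 after thinning, the granzyme median 4.31 without a filter, and the G2 and M median -1.74, -1.80 and -1.72 with the pseudocount, the minimum and thinning.

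Among antibody groups, the log2 ratio of summed Gzmc to Gzmg to control, 0.46 with anti-PD-1, became 0.62 after thinning, 0.68 without the top cell and 0.65 without high doublet scores. For anti-CTLA-4 it went from -0.19 to -0.064 after thinning and 0.062 without the top cell. For the combination it went from -0.37 to -0.26 after thinning, -0.15 without the top cell and -0.26 in cluster 10 of the lymphoid table, which was added after seeing the data, as were leaving out shared barcodes and adding unlisted ones. Ctsg with anti-CTLA-4 turned to 0.55 without the top cell. Cma1 turned to -0.29 against cluster 5 after thinning, and ran from -0.71 to 1.87 against cluster 5 and from -1.05 to 4.46 against the T cell clusters when 1 library was left out, both negative without the combination library. Of the named genes, 31 of the 32 past 2-fold against cluster 5 kept their sign under all alternatives, 47 of 48 against the T cell clusters and 20 of 21 between antibody groups, and 20, 39 and 10 of them stayed past 2-fold under all of them. The causes of these moves were not tested. Groups of 26 to 70 cells limit what antibody contrasts can show.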
